A study of Homo sapiens with 12 samples.

Results

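Cells of 786-O, a human line from clear cell kidney cancer, that carried shRNAs against YAP and TAZ (shYAPTAZ) were set against 786-O cells with shRNAs against 3 JUN-family members of AP-1, namely JUN, JUNB and JUND (shJUNs). This used 6 of the series' 12 libraries, 3 of each knockdown, taken by their column names, and every gene with enough counts. Both lines had doxycycline-inducible shRNAs and were grown with doxycycline for 72 hours, so every library of the comparison was induced. The labels' protocols select the lines with puromycin, blasticidin or hygromycin according to how many genes were silenced, and call the 3 libraries of a line technical replicates. No line with a control shRNA and no uninduced or parental library enters the comparison, so a difference shows that the lines differ but not which of them moved, and p-values measure only the spread between these libraries.

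YAP and TAZ are transcription coactivators that the Hippo kinases hold in the cytoplasm. In the nucleus they bind TEAD factors at enhancers and turn on genes of growth, adhesion and the actin cytoskeleton. AP-1 is a dimer of JUN proteins with FOS, ATF or MAF relatives, and it shares many enhancers with TEAD factors. The comparison therefore asks which transcripts differ between a line that silences one partner and a line that silences the other. Effects of the silencing cannot be told apart here from other differences between the lines, such as any in drug selection. 786-O lacks working VHL and is known for constantly active HIF2A.

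RNA was measured by BRB-seq, which counts the 3′ ends of polyadenylated RNA. Total counts were 2272459, 3172106 and 4127139 in shYAPTAZ replicates 1 to 3 and between 3684052 and 4469956 in shJUNs, and 3 counts equalled 0.671 to 1.38 CPM, the count scaled to library size, here after TMM. Mitochondrial transcripts made up 6.54% to 8.40% of all counts in shYAPTAZ and 6.33% to 7.44% in shJUNs. The shYAPTAZ libraries differed more among themselves than the shJUNs libraries did: chi-squared per degree of freedom between 2 replicates was 8.61 to 20.2 in shYAPTAZ, highest between replicates 1 and 3, and 4.91 to 6.03 in shJUNs. Replicate 1 of shYAPTAZ was also the shallowest library. CXCL8, a chemokine chosen here after its values were seen, was 18.8, 43.6 and 227 CPM in shYAPTAZ and 8.50, 13.98 and 16.9 CPM in shJUNs, and did not pass the test (adjusted p = 0.114). The renal lineage factor PAX8 was 114, 91.4 and 100.1 CPM in shYAPTAZ and 107, 83.05 and 110.1 CPM in shJUNs, at overlapping levels.

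Of 11720 genes tested, 1857 (15.8%) were called, meaning an adjusted p under 0.05 in edgeR's quasi-likelihood test with Benjamini-Hochberg adjustment. In shYAPTAZ 958 were higher (8.17%) and 899 lower (7.67%), and with a change of at least 2-fold 548 were higher (4.68%) and 488 lower (4.16%). The median log2 change of all genes tested was 0.02. The 3 and 3 libraries did not overlap for 1831 of the called genes, and for 33.9% of all genes tested. The number of calls rested on the spread between few libraries: it was 1066 without shYAPTAZ replicate 2 and 964, 1021 and 931 without shJUNs replicates 1, 2 and 3, but 2236 and 2541 without shYAPTAZ replicates 1 and 3. For that reason the counts of called members are given beside those found with single libraries left out. They stand against 8.17% higher and 7.67% lower among all genes tested, and a count near these shares is not a result about a list.

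All 5 mRNAs that the shRNAs target differed between the lines, each lower in the line that silences it. YAP1, which encodes YAP (ENSG00000137693, chromosome 11, 102110447 to 102233424, hg38), was 22.04, 10.3 and 10.4 CPM in shYAPTAZ, against 52.6, 66.4 and 53.6 CPM in shJUNs, 4.16-fold lower (log2 -2.06 ± 0.30 SE, adjusted p = 0.000377). WWTR1, which encodes TAZ (ENSG00000018408, chromosome 3, 149517235 to 149736714), was 147, 144 and 169.9 CPM in shYAPTAZ, against 464, 458 and 411 CPM in shJUNs, 2.89-fold lower (log2 -1.53 ± 0.14 SE, adjusted p = 4.29e-06). No shYAPTAZ library reached a shJUNs library for either gene, and replicate 1 of shYAPTAZ kept the most YAP1.

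JUND (ENSG00000130522, chromosome 19, 18279694 to 18281622) had the widest gap of the 3 JUN genes. It was 174, 175 and 166 CPM in shYAPTAZ, against 39.8, 34.4 and 42.3 CPM in shJUNs, 4.40-fold higher (log2 2.14 ± 0.17 SE, adjusted p = 1.21e-06). JUNB (ENSG00000171223, chromosome 19, 12791486 to 12793315) was 216, 176 and 203 CPM in shYAPTAZ, against 104, 112 and 126 CPM in shJUNs, 1.74-fold higher (adjusted p = 0.00311), and its annotated span overlaps HOOK2. JUN (ENSG00000177606, chromosome 1, 58776845 to 58784048) was 109, 182 and 176 CPM in shYAPTAZ, against 78.7, 86.3 and 93.7 CPM in shJUNs, 1.81-fold higher (adjusted p = 0.00864). The groups stood apart for all 3, but the lowest shYAPTAZ library for JUN was close to the highest of shJUNs. The call for JUN ended when shYAPTAZ replicate 2 (adjusted p = 0.0640) or, of shJUNs, replicate 1 (0.0713) or 2 (0.0501) was left out.

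**Figure D1:**
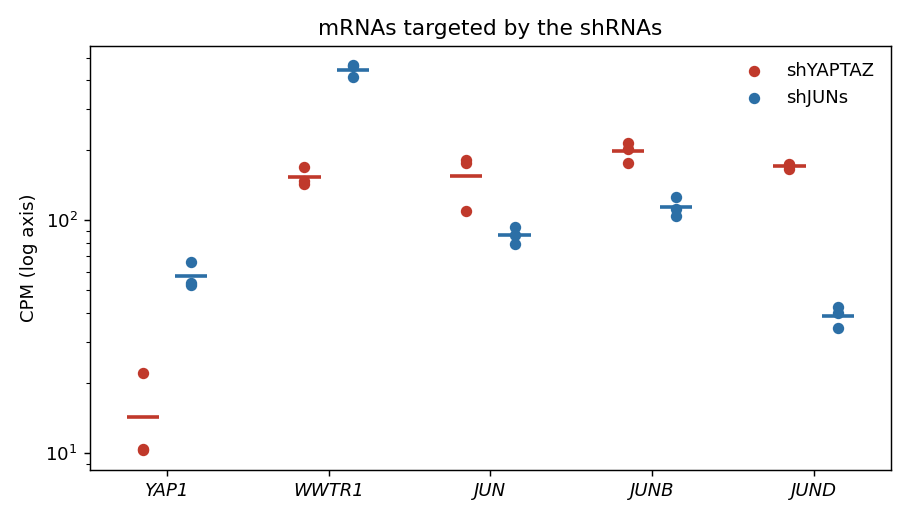
CPM of the mRNAs targeted by the shRNAs in each library, on a log axis; points are libraries and bars are means of 3, with shYAPTAZ left of shJUNs for each gene. YAP1 and WWTR1 are lower in shYAPTAZ and the 3 JUN genes higher, with no overlap between the groups.

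YAP/TAZ target genes leaned lower in shYAPTAZ, but not as a block. Of 22 listed targets 21 were tested: 8 were lower, 4 higher and 9 were not called, with a median log2 change of -0.56. Members reached the test partly through the group where they are high, so these counts do not stand for every target. Summed over the list, the targets made up 2533, 2633 and 2933 CPM in shYAPTAZ, against 3808, 3631 and 3525 CPM in shJUNs. Leaving out each library in turn gave 5 to 10 lower and 2 to 5 higher. The fewest lower members, 5, were called without shYAPTAZ replicate 2 or shJUNs replicates 2 or 3, and the fewest higher, 2, without shJUNs replicates 1 or 3.

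The promoters of ANKRD1 and TGFB2, listed targets that were lower in shYAPTAZ, and of POSTN and CLDN4, genes far higher and far lower in shYAPTAZ, show where short TEAD and AP-1 letters lie. Each is the 250 bases before the RefSeq start on GRCh38.p14, 5′ to 3′ on the gene's strand. Capitals mark GGAATG or its complement CATTCC, letters that TEAD factors bind, and TGANTCA, letters that AP-1 binds, whose complement has the same form. The regions are chr10:90921088-90921337 on the minus strand for ANKRD1, chr1:218345086-218345335 on the plus strand for TGFB2, chr13:37598769-37599018 on the minus strand for POSTN and chr7:73830746-73830995 on the plus strand for CLDN4.
ANKRD1: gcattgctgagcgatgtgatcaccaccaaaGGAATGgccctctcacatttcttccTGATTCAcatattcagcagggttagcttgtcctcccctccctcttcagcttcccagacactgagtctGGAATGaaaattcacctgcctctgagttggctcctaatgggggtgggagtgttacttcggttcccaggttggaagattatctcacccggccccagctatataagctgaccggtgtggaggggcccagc
TGFB2: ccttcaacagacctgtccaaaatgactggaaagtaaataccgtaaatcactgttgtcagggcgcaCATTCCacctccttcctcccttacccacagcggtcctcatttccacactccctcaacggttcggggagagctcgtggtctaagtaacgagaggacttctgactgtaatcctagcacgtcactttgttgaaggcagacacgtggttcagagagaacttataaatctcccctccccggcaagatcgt
POSTN: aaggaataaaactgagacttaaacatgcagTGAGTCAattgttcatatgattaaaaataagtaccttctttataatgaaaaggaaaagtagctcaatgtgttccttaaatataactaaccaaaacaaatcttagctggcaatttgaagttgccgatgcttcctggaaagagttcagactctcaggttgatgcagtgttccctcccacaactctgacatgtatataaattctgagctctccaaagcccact
CLDN4: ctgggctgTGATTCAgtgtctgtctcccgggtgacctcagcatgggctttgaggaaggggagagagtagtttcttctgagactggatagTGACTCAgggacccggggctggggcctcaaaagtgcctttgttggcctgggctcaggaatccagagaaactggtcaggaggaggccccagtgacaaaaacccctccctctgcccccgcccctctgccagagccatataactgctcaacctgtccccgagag

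ANKRD1 holds TEAD letters at 220 to 215 and 128 to 123 bases before its start and AP-1 letters at 195 to 189. TGFB2 holds only the TEAD letters, at 185 to 180, while POSTN holds AP-1 letters at 220 to 214 and CLDN4 at 242 to 236 and 161 to 155. Both strands were searched, and neither motif overlaps the other in these windows. These promoters were picked as examples by no set rule and each holds a motif, so they do not stand for the changed genes. The AP-1 letters stood in 6.60% of the 27305 promoters of the table, in 3.71% of the 9196 of tested genes, in 3.64% of the 770 of genes called higher and in 3.92% of the 715 of genes called lower. The TEAD letters stood in 11.9%, 9.46%, 10.8% and 8.67% of the same sets. Among called genes with a change of at least 2-fold, the TEAD letters stood in 11.9% of 419 promoters of higher genes and 6.25% of 368 of lower genes, and the AP-1 letters in 4.30% and 4.89%. These shares were not tested, and most of the sites that TEAD and AP-1 occupy are known to lie far from starts.

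ANKRD1, a nuclear ankyrin protein used widely as a YAP readout, was 4.13, 2.89 and 4.59 CPM in shYAPTAZ, against 6.71, 13.4 and 16.4 CPM in shJUNs (log2 -1.64 ± 0.50 SE, adjusted p = 0.0365). Its counts were few and the lowest shJUNs library was close to the shYAPTAZ ones. TGFB2, a TGF-beta ligand, was 22.95, 18.6 and 36.3 CPM in shYAPTAZ, against 64.9, 59.7 and 58.3 CPM in shJUNs, 2.32-fold lower (adjusted p = 0.00488). CRIM1, a membrane protein that binds BMPs, was 228, 179 and 179 CPM in shYAPTAZ, against 449, 416 and 386 CPM in shJUNs, 2.14-fold lower (adjusted p = 0.000153). AXL, a receptor tyrosine kinase, was 121, 108 and 158 CPM in shYAPTAZ, against 235, 246 and 247 CPM in shJUNs, 1.88-fold lower (adjusted p = 0.00165). For TGFB2, CRIM1 and AXL every shYAPTAZ library lay below every shJUNs library. AMOTL2, an angiomotin that binds YAP, was 1.90-fold lower (adjusted p = 0.0051) and IGFBP3, which binds insulin-like growth factors, 1.76-fold lower (0.00026). LATS2, the Hippo kinase that is itself a YAP target and lies on chromosome 13, was 13.8, 13.8 and 16.4 CPM in shYAPTAZ, against 27.7, 27.7 and 30.4 CPM in shJUNs (adjusted p = 0.027).

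The other members were higher in shYAPTAZ or not called. NT5E, the ectoenzyme CD73, was 33.1, 60.6 and 83.9 CPM in shYAPTAZ, against 18.6, 29.03 and 16.4 CPM in shJUNs, 2.81-fold higher (adjusted p = 0.00635). RBMS3, an RNA-binding protein, was 2.08-fold higher (adjusted p = 0.002), CCDC80, a secreted matrix-associated protein, 1.95-fold higher (0.00417) and PTPN14, a phosphatase that binds YAP, 1.45-fold higher (0.0302). CCN1, a matricellular protein and classical target, was 252, 464 and 715 CPM in shYAPTAZ, against 725, 710.1 and 711 CPM in shJUNs (adjusted p = 0.274). Replicates 1 and 2 of shYAPTAZ lay below all shJUNs libraries for CCN1 and replicate 3 among them. CCN2 was 54.2, 70.3 and 149.6 CPM in shYAPTAZ, against 64.6, 48.9 and 61.7 CPM in shJUNs (adjusted p = 0.169), with overlapping libraries.

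Single libraries decided some of these calls. That of ANKRD1 ended without shYAPTAZ replicate 2 (adjusted p = 0.122) or shJUNs replicates 2 (0.122) or 3 (0.189), and with limma-voom (0.0785). That of NT5E ended without shJUNs replicates 1 (0.0510) or 3 (0.0514). LATS2, PTPN14 and FJX1, a Golgi kinase relative that was 2.07-fold lower (adjusted p = 0.0316), each lost the call without shYAPTAZ replicate 2 or any 1 of the shJUNs libraries, with adjusted p from 0.0809 to 0.107 for LATS2, from 0.0740 to 0.150 for PTPN14 and from 0.0648 to 0.176 for FJX1.

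**Figure D2:**
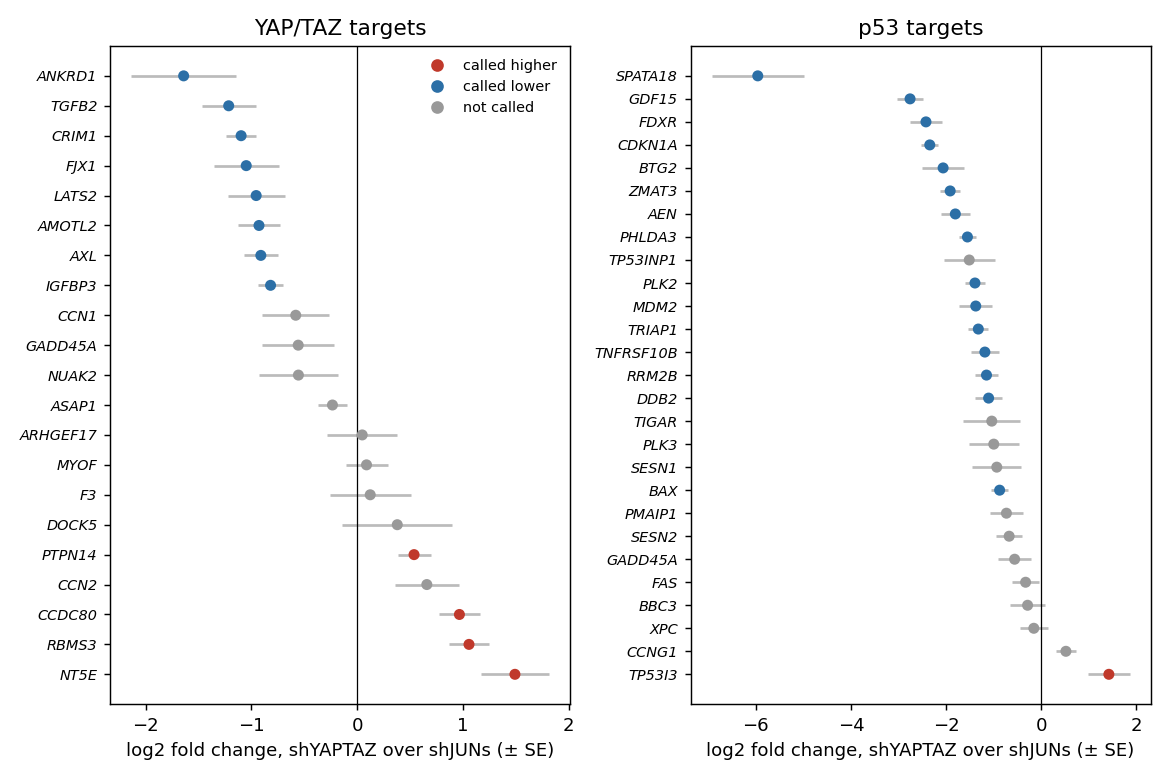
Fitted log2 fold change of shYAPTAZ over shJUNs for each tested YAP/TAZ target (left) and p53 target (right), with bars of 1 SE from edgeR and colour for the call. YAP/TAZ targets run on both sides of 0, from ANKRD1 at -1.64 to NT5E at 1.49, whereas most p53 targets lie below 0.

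None of the 4 TEAD and VGLL genes tested was called: TEAD1 was 64.7, 53.9 and 42.1 CPM in shYAPTAZ and 76.04, 66.7 and 60.3 CPM in shJUNs (adjusted p = 0.295), and adjusted p was 0.90 for TEAD4 and 0.591 for VGLL4, a TEAD-binding repressor. Without shYAPTAZ replicate 3, 1 of them was higher. Of 20 Hippo pathway genes tested, 4 were higher and 4 lower, AMOTL2, LATS2 and PTPN14 among them. WWC1, the scaffold KIBRA that activates LATS kinases, was 23.4, 34.01 and 28.04 CPM in shYAPTAZ, against 80.5, 81.7 and 77.4 CPM in shJUNs, 2.79-fold lower (adjusted p = 0.000259). The protocadherin FAT1 was 48.7, 49.7 and 36.7 CPM in shYAPTAZ, against 16.3, 24.5 and 13.96 CPM in shJUNs, 2.47-fold higher (adjusted p = 0.00508). The libraries stood apart for both genes. The chromosome 4 window from 180 to 200 Mb, which holds FAT1, itself had a median log2 change of 1.01 over 23 genes tested. The part of this shift in the rise of FAT1 was not tested. Without shYAPTAZ replicate 2 or any 1 shJUNs library only 1 or 2 Hippo genes were higher and 2 lower.

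Among the AP-1 family, 10 of 14 genes were tested, 4 were higher and 1 lower. The family, with JUN, JUNB and JUND included, summed to 754, 789.9 and 791 CPM in shYAPTAZ, against 460, 507 and 521 CPM in shJUNs. Of the 4 higher members 3 were JUN, JUNB and JUND, which shJUNs silences, so the design fixed their direction. It also widened the gap between the sums, which therefore do not show that the rest of the family was higher. Without shYAPTAZ replicate 2 or shJUNs replicate 1 or 2 only 2 members were higher. FOS was 6.89, 4.81 and 9.67 CPM in shYAPTAZ, against 1.34, 2.42 and 1.58 CPM in shJUNs (log2 2.00, adjusted p = 0.039), a call that ended with any 1 library left out (adjusted p from 0.0531 to 0.144). JDP2, a JUN dimerisation partner that represses, was 5.05, 6.42 and 5.56 CPM in shYAPTAZ, against 10.3, 24.7 and 13.96 CPM in shJUNs (adjusted p = 0.0278). It lost the call without shYAPTAZ replicate 2 (0.0696) or shJUNs replicates 2 (0.198) or 3 (0.0711). FOSL1, the FOS relative that pairs with JUN in many carcinomas, was 11.02, 18.6 and 52.7 CPM in shYAPTAZ, against 33.99, 43.5 and 55.2 CPM in shJUNs, with overlapping libraries (adjusted p = 0.366). FOSL2 was 151, 140.2 and 124 CPM in shYAPTAZ, against 117, 123 and 102 CPM in shJUNs (adjusted p = 0.266), apart but not called. Of the MAF genes 4 were tested and none called, with adjusted p = 0.765 for MAF, 0.138 for MAFF and 0.091 for MAFG. Without shYAPTAZ replicate 1 there was 1 MAF gene higher and 1 lower, and without shYAPTAZ replicate 3 there was 1 lower.

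AP-1 target genes were called in both directions: of 26 tested, 4 were higher, 1 was lower and 21 were not called, with a median log2 change of 0.40. The summed list leaned the other way, at 1509, 1842 and 2632 CPM in shYAPTAZ, against 2583, 2735 and 2918 CPM in shJUNs. Only shYAPTAZ replicate 3 lay within the shJUNs range of that sum. MMP13, a collagenase whose promoter is a textbook AP-1 target, was 102, 83.1 and 50.8 CPM in shYAPTAZ, against 15.9, 12.4 and 17.3 CPM in shJUNs, 5.11-fold higher (adjusted p = 6.03e-05). IER3, an immediate early gene, was 174, 180.0 and 294 CPM in shYAPTAZ, against 63.3, 59.4 and 76.5 CPM in shJUNs, 3.26-fold higher (adjusted p = 9.33e-05). The groups stood apart for both genes. DUSP5, a phosphatase that acts on ERK (adjusted p = 0.00844), and TIMP1, a metalloproteinase inhibitor (0.00864), were higher as well. DUSP5 lost its call without shJUNs replicate 3 (0.0560), and TIMP1 without shYAPTAZ replicate 2 or any 1 shJUNs library (0.0517 to 0.0605). The list gave 8 higher without shYAPTAZ replicate 1 or 3 but 2 without shJUNs replicate 3, 5 lower without shYAPTAZ replicate 3, and 7 higher with DESeq2.

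Genes of the actin cytoskeleton and of epithelial junctions were mostly lower in shYAPTAZ where they were called. Of 32 cytoskeleton and focal adhesion genes tested 11 were lower and 3 higher, but 6 or 7 were lower without shYAPTAZ replicate 2 or any 1 shJUNs library. Higher members numbered 8 without shYAPTAZ replicate 1 and 1 without shJUNs replicate 2 or 3. TAGLN, the actin-binding protein transgelin, was 1.84, 3.53 and 0.483 CPM in shYAPTAZ, against 25.3, 19.4 and 23.4 CPM in shJUNs, 11.96-fold lower (adjusted p = 0.000365). FHL2, a LIM protein of focal adhesions, was 209, 269 and 322 CPM in shYAPTAZ, against 626, 678 and 702 CPM in shJUNs, 2.50-fold lower (adjusted p = 5.06e-05). MYL9, a myosin light chain, was 1.92-fold lower (adjusted p = 0.000491) and LIMA1, which bundles actin filaments, 1.99-fold lower (0.00213). ACTA2, smooth muscle actin, was higher instead, at 74.4, 150.2 and 193 CPM in shYAPTAZ, against 61.7, 61.8 and 52.2 CPM in shJUNs (adjusted p = 0.00588), with replicate 1 of shYAPTAZ close to the shJUNs libraries.

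The epithelial list had 14 genes tested, 5 lower and 1 higher, and 5 to 6 lower with each library left out in turn. CLDN4, a tight junction claudin, was 10.1, 6.42 and 5.08 CPM in shYAPTAZ, against 92.8, 110.2 and 97.04 CPM in shJUNs, 14.4-fold lower (log2 -3.85 ± 0.27 SE, adjusted p = 2.94e-07). KRT19, a keratin of simple epithelia, was 67.9, 87.3 and 53.9 CPM in shYAPTAZ, against 279.8, 343 and 298 CPM in shJUNs, 4.41-fold lower (adjusted p = 3.02e-06). KRT18 was 109.7, 163 and 185 CPM in shYAPTAZ, against 388, 427 and 444 CPM in shJUNs, 2.74-fold lower (adjusted p = 7.72e-05). The groups stood apart for these 3 genes, and the annotated span of KRT18 overlaps that of KRT8. The desmosome plaque gene PKP2 had 2 counts over the 3 shYAPTAZ libraries and 184 over shJUNs. EPCAM, an epithelial adhesion molecule, was the member higher in shYAPTAZ, at 6.89, 13.2 and 12.6 CPM, against 0.447, 2.42 and 0 CPM in shJUNs (adjusted p = 0.00933). Its call ended without shYAPTAZ replicate 2 (0.0526) or shJUNs replicate 1 (0.0608).

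Matrix genes changed in both directions and by large amounts. Of 30 matrix and mesenchymal genes tested 9 were higher and 4 lower, and 5 were higher without shJUNs replicate 1 or 3. FN1, fibronectin, was 1595, 1380.3 and 1651 CPM in shYAPTAZ, against 849, 794 and 766 CPM in shJUNs, 1.92-fold higher (adjusted p = 5.65e-05). LOXL1, which crosslinks elastin, was 66.1, 107 and 122 CPM in shYAPTAZ, against 26.2, 31.2 and 21.4 CPM in shJUNs, 3.78-fold higher (adjusted p = 0.000138). FBN1, fibrillin 1, was 51.4, 36.3 and 16.4 CPM in shYAPTAZ, against 5.14, 8.87 and 5.85 CPM in shJUNs, 5.19-fold higher (adjusted p = 0.0014). The groups stood apart for these 3 genes, though FBN1 varied more than 2-fold among shYAPTAZ libraries.

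Basement membrane collagen IV lay on the other side. COL4A1 was 280.5, 261 and 194 CPM in shYAPTAZ, against 881, 844 and 805 CPM in shJUNs, 3.45-fold lower (adjusted p = 1.59e-06). COL4A2 was 120.3, 98.2 and 76.9 CPM in shYAPTAZ, against 301, 305 and 301 CPM in shJUNs, 3.09-fold lower (adjusted p = 2.27e-05). They are neighbours on chromosome 13 whose annotated spans overlap, so reads at the overlap could be counted to either. COL5A2, a fibrillar collagen chain, was 2.30, 2.89 and 2.66 CPM in shYAPTAZ, against 23.7, 33.6 and 20.3 CPM in shJUNs, 9.67-fold lower (adjusted p = 7.83e-05).

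Among 12 integrin subunits tested 3 were higher and 2 lower. ITGB5, a vitronectin receptor subunit, was 358, 369 and 332 CPM in shYAPTAZ, against 180.0, 173 and 172 CPM in shJUNs, 2.02-fold higher (adjusted p = 0.000137), and ITGB8 (3.13-fold, 0.000583) and ITGB3 (2.28-fold, 0.00454) were higher as well. ITGA3, a laminin receptor subunit, was 189.6, 210.2 and 175 CPM in shYAPTAZ, against 506, 542 and 544 CPM in shJUNs, 2.77-fold lower (adjusted p = 4.04e-06). ITGA4, the alpha chain of VLA-4, had no count in shYAPTAZ and 8.05, 12.9 and 6.30 CPM in shJUNs, at least 27.9-fold lower when 3 counts over the 3 libraries are taken as the floor (adjusted p = 0.000601). Each of these 5 calls held with any 1 library left out, and 5 subunits were higher without shYAPTAZ replicate 3.

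Signalling genes around the matrix differed too. Of 22 TGF-beta and BMP genes tested 7 were higher and 3 lower, 5 to 8 and 2 to 4 with each library left out in turn. Their summed level ran the other way, at 1778, 1759 and 1962 CPM in shYAPTAZ, against 2784, 2785 and 2864 CPM in shJUNs. TGFBR2, the type II TGF-beta receptor, was 185, 153 and 143 CPM in shYAPTAZ, against 63.96, 65.8 and 79.5 CPM in shJUNs, 2.29-fold higher (adjusted p = 0.000321). INHBB, an activin subunit, was 2.02-fold higher (adjusted p = 0.00224) and CHRDL1, a BMP antagonist, 2.11-fold higher (0.00439). The ligand TGFB2 was among the lower members, as was SMAD3, a signal transducer of the pathway, 1.76-fold lower (adjusted p = 0.0118), a call lost without shJUNs replicates 2 (0.0712) or 3 (0.0615).

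Of 21 Wnt pathway genes tested 8 were higher and none lower, with a median log2 change of 0.42, and 5 were higher without shYAPTAZ replicate 2 or shJUNs replicate 2, and 4 when the mean had to reach 10 CPM. In addition 1 Wnt gene was lower without shYAPTAZ replicate 1 and under 3 other settings, no filter on low counts and limma-voom among them. LEF1, the transcription factor that beta-catenin binds, was 19.3, 15.7 and 16.4 CPM in shYAPTAZ and had no count in shJUNs, at least 71.0-fold higher (adjusted p = 3.32e-05). LGR4, an R-spondin receptor, was 72.1, 46.5 and 30.9 CPM in shYAPTAZ, against 11.9, 13.4 and 13.5 CPM in shJUNs, 3.81-fold higher (adjusted p = 0.000763). The ligand WNT5B was 11.02, 13.5 and 8.22 CPM in shYAPTAZ, against 1.57, 0.269 and 0.675 CPM in shJUNs, 12.2-fold higher (adjusted p = 0.00212). DKK3, a secreted dickkopf protein, was 1.69-fold higher (adjusted p = 0.00633). No shYAPTAZ library overlapped shJUNs for these 4 genes.

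Of 8 EGF receptor and ligand genes tested 1 was higher and 2 lower. EGFR was 331, 242 and 196 CPM in shYAPTAZ, against 152, 149.7 and 144 CPM in shJUNs, 1.72-fold higher (adjusted p = 0.00859), and lost its call without shJUNs replicates 1 (0.0506) or 3 (0.0592). NRG1, a ligand of ERBB receptors, was 16.1, 25.03 and 34.6 CPM in shYAPTAZ, against 51.2, 53.5 and 81.7 CPM in shJUNs, 2.42-fold lower (adjusted p = 0.00735), a call that ended without shJUNs replicate 3 (0.0670). TGFA, a ligand of EGFR and known HIF2A target, was 44.5, 19.6 and 58.3 CPM in shYAPTAZ, against 90.4, 71.5 and 85.1 CPM in shJUNs (adjusted p = 0.0347). Its call ended without shYAPTAZ replicate 2 or any 1 shJUNs library (adjusted p from 0.0696 to 0.139).

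Targets of p53, the transcription factor that halts the cell cycle after damage, were the list with the highest share of members called lower. Of 27 tested 15 were lower, 1 was higher and 11 were not called, with a median log2 change of -1.15. Leaving out each library in turn gave 12 to 17 lower and at most 1 higher. Summed over the list the targets made up 1110, 1032 and 1053 CPM in shYAPTAZ, against 1899, 1818 and 1900 CPM in shJUNs, 2 sets of values with little spread inside each.

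CDKN1A, the cyclin-dependent kinase inhibitor p21, was 27.1, 33.4 and 33.8 CPM in shYAPTAZ, against 157, 169.6 and 155 CPM in shJUNs, 5.07-fold lower (log2 -2.34 ± 0.18 SE, adjusted p = 7.42e-07). GDF15, a secreted stress cytokine, was 8.26, 8.34 and 7.98 CPM in shYAPTAZ, against 52.6, 43.00 and 70.7 CPM in shJUNs, 6.76-fold lower (adjusted p = 1.84e-05). ZMAT3, an RNA-binding zinc finger protein, was 30.3, 27.6 and 19.3 CPM in shYAPTAZ, against 90.6, 99.98 and 97.3 CPM in shJUNs, 3.77-fold lower (adjusted p = 4.18e-05). PHLDA3, which restrains AKT, was 2.93-fold lower (adjusted p = 5.72e-05). The libraries stood apart for all 4, and each kept its call under every alternative run. TP53I3, a quinone oxidoreductase relative, was higher (adjusted p = 0.0381), a call lost without shYAPTAZ replicates 2 or 3 or any 1 shJUNs library (0.0605 to 0.142).

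Of 29 mitosis genes tested 8 were higher in shYAPTAZ and none lower, with a median log2 change of 0.44. CENPF, a kinetochore protein, was 271, 325 and 269 CPM in shYAPTAZ, against 104, 168 and 119.5 CPM in shJUNs, 2.21-fold higher (adjusted p = 0.000633). MAD2L1, a spindle checkpoint protein, was 121, 117 and 125 CPM in shYAPTAZ, against 61.9, 62.4 and 67.1 CPM in shJUNs, 1.90-fold higher (adjusted p = 0.0015), and the cytokinesis motor KIF23 was 2.05-fold higher (0.00159).

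The mitosis list summed to 2794, 3849 and 4058 CPM in shYAPTAZ, against 2617, 2923 and 3041 CPM in shJUNs, so shYAPTAZ replicate 1 lay within the shJUNs range. Without that library 15 were higher. The number was 4 without shYAPTAZ replicate 2, 3 without shJUNs replicate 1 and 5 without shJUNs replicate 2, and 2 mitosis genes were lower without shYAPTAZ replicate 3. Of 35 DNA replication and S phase genes tested 1 was higher, the DNA ligase LIG1 (adjusted p = 0.0253, lost without shYAPTAZ replicate 2 or any 1 shJUNs library at 0.0807 to 0.142), and none was lower. Without shYAPTAZ replicate 1 replication genes numbered 3 higher, and without shYAPTAZ replicate 3 they numbered 4 lower. That list summed to 1362, 2079 and 2857 CPM in shYAPTAZ and 1943, 2088 and 2402 CPM in shJUNs, and the shYAPTAZ libraries lay on both sides of the others. The part of this spread in the mitosis counts was not tested.

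**Figure D3:**
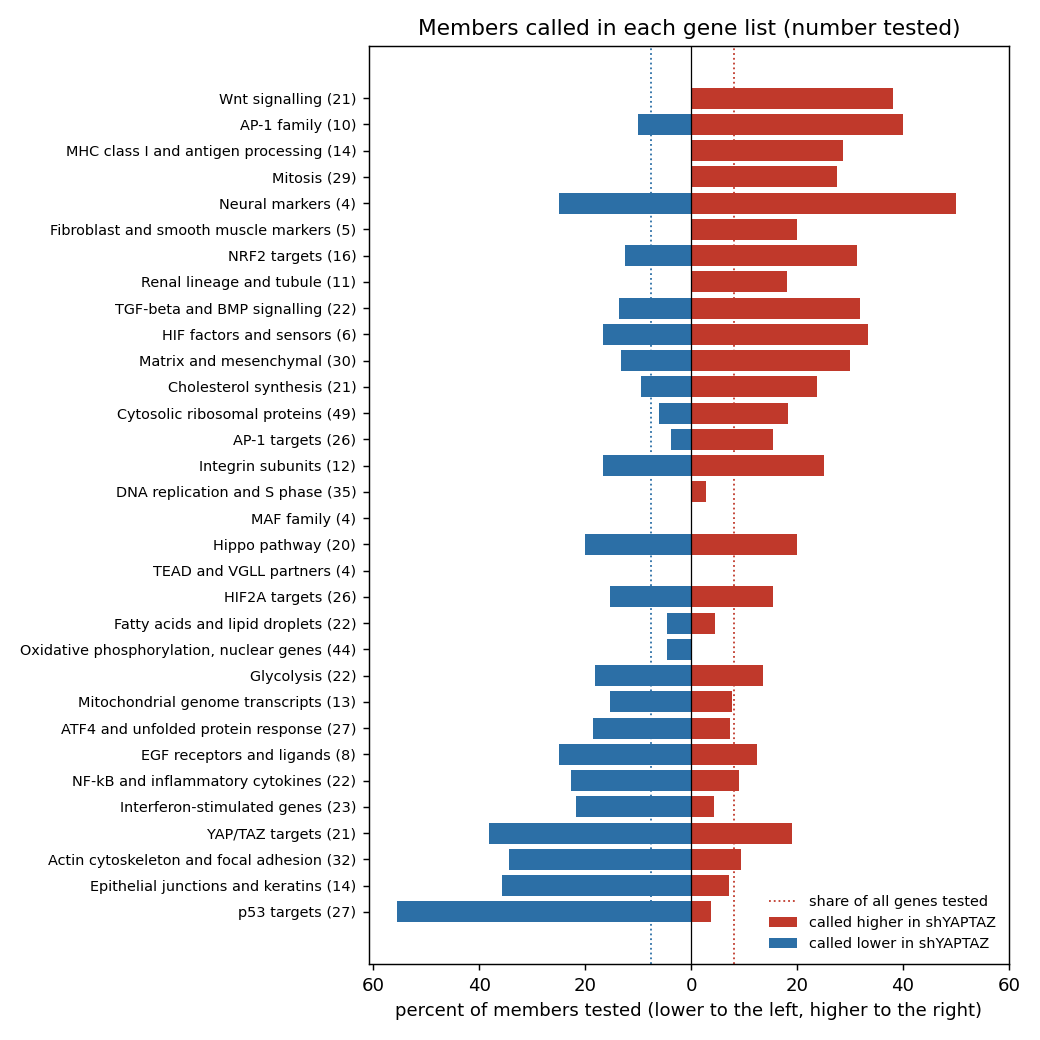
Percent of tested members called higher in shYAPTAZ (right) and lower in shYAPTAZ (left), for each gene list with tested members other than the shRNA targets, with the number tested in brackets and dotted lines at the share of all genes tested, 8.17% higher and 7.67% lower. The p53, YAP/TAZ target, epithelial and cytoskeleton lists reach farthest to the left. Farthest to the right is the neural marker list, with 2 of only 4 tested genes higher and 1 lower. The AP-1 family and Wnt lists come next, the AP-1 family with the 3 silenced JUN genes among its 4 higher members.

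Of 6 HIF factor and sensor genes tested 2 were higher, those of both HIF alpha subunits, and 1 was lower. HIF1A (ENSG00000100644, chromosome 14, 61695513 to 61748259) was 152, 149 and 114 CPM in shYAPTAZ, against 6.26, 8.06 and 6.75 CPM in shJUNs, 19.6-fold higher (log2 4.30 ± 0.23 SE, adjusted p = 2.54e-08). The shJUNs libraries held little HIF1A RNA, and the antisense gene HIF1A-AS1 overlaps it, so reads of the pair cannot be told apart without known strand use. EPAS1, which encodes HIF2A (chromosome 2, 46293667 to 46386697), was 174, 111 and 58.7 CPM in shYAPTAZ, against 36.9, 38.7 and 36.5 CPM in shJUNs, 3.04-fold higher (adjusted p = 0.00297). Its level varied nearly 3-fold among shYAPTAZ libraries and hardly in shJUNs. ARNT2, a partner subunit, was 0.918, 5.13 and 5.32 CPM in shYAPTAZ, against 19.5, 16.4 and 21.6 CPM in shJUNs, 4.76-fold lower (adjusted p = 0.00508).

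HIF2A target genes that were called split evenly, while the summed list was lower in shYAPTAZ. That sum was 4540, 3892 and 3510 CPM in shYAPTAZ, against 5126, 4904 and 4648 CPM in shJUNs. Of 26 tested 4 were higher and 4 lower, with a median log2 change of 0.30, and 7 were higher without shYAPTAZ replicate 3 but 1 or 2 without any 1 shJUNs library. BHLHE41, a repressor of the circadian clock, was 106, 115 and 70.8 CPM in shYAPTAZ, against 27.1, 20.96 and 32.9 CPM in shJUNs, 3.58-fold higher (adjusted p = 0.000149). VLDLR, a lipoprotein receptor, was 66.1, 48.4 and 32.1 CPM in shYAPTAZ, against 183, 153 and 111 CPM in shJUNs, 3.09-fold lower (adjusted p = 0.000633). The lower members also held IGFBP3 and TGFA.

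Of 22 glycolysis genes tested 3 were higher and 4 lower, beside 8.17% higher and 7.67% lower among all genes tested. Their median log2 change was 0.02, and 2 were lower without shYAPTAZ replicate 2 or any 1 shJUNs library. HK2, the hexokinase of the first step, was 28.5, 28.2 and 24.4 CPM in shYAPTAZ, against 6.04, 10.5 and 5.63 CPM in shJUNs, 3.67-fold higher (adjusted p = 0.00195). The lactate dehydrogenase subunits parted: LDHA was 1359, 1671 and 1744 CPM in shYAPTAZ, against 1137, 1069 and 1065 CPM in shJUNs, 1.46-fold higher (adjusted p = 0.00476), while LDHB was 303, 281 and 269 CPM in shYAPTAZ, against 453, 455 and 456 CPM in shJUNs, 1.60-fold lower (0.00177). SLC16A3, the lactate exporter MCT4, was 1.83-fold lower (adjusted p = 0.000334). No library overlapped for these 4 genes.

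Interferon-stimulated genes were mostly lower where called, and MHC class I genes higher. Of 23 interferon-stimulated genes tested 5 were lower and 1 higher, and 5 to 7 were lower with each library left out in turn, with 4 higher without shYAPTAZ replicate 3. IFI27, a mitochondrial protein, was 10.1, 8.02 and 3.63 CPM in shYAPTAZ, against 82.7, 81.2 and 85.1 CPM in shJUNs, a log2 change of -3.58 (adjusted p = 2.75e-06). ISG15, a ubiquitin-like modifier, was 57.4, 41.4 and 39.2 CPM in shYAPTAZ, against 123, 119.6 and 129 CPM in shJUNs, 2.72-fold lower (adjusted p = 0.000169). BST2, which tethers budding viruses, was 2.23-fold lower (adjusted p = 0.00099). XAF1, a proapoptotic interferon gene, was 19.0-fold lower (adjusted p = 0.000502). IFI44L stood against them, at 52.3, 52.9 and 38.2 CPM in shYAPTAZ and 13.2, 16.1 and 16.7 CPM in shJUNs, 3.11-fold higher (adjusted p = 0.000587).

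Of 14 MHC class I and antigen processing genes tested 4 were higher and none lower, with a median log2 change of 0.41. HLA-C was 1588, 1159.5 and 883 CPM in shYAPTAZ, against 519, 572 and 511 CPM in shJUNs, 2.27-fold higher (adjusted p = 0.000383). B2M, the shared light chain, was 4240.0, 2839 and 2183 CPM in shYAPTAZ, against 1962, 1794 and 1701 CPM in shJUNs, 1.70-fold higher (adjusted p = 0.0205), and lost its call without shJUNs replicates 2 (0.0610) or 3 (0.0672) and with limma-voom (0.0849). HLA genes are near-identical copies of each other on chromosome 6, so their counts are uncertain. The chromosome 6 window from 20 to 40 Mb, which holds HLA-C, itself had a median log2 change of 0.39 over 173 genes tested. In that window 79.2% of genes lay above 0, and the part of this shift in the list's rise was not tested. The list gave 2 members higher without shJUNs replicate 2 and 1 without replicate 3. Of 22 NF-kB and cytokine genes tested 2 were higher and 5 lower. ICAM1, an adhesion molecule for leukocytes, was 75.3, 47.5 and 66.96 CPM in shYAPTAZ, against 119, 123 and 140.3 CPM in shJUNs, 2.02-fold lower (adjusted p = 0.00266). That list summed to 1021, 1189 and 2167 CPM in shYAPTAZ and 1662, 1721 and 1891 CPM in shJUNs, and gave 10 lower without shYAPTAZ replicate 3 but 1 to 3 without shYAPTAZ replicate 2 or any 1 shJUNs library. NF-kB genes higher numbered 5 without shYAPTAZ replicate 1, 1 without shYAPTAZ replicate 3 or shJUNs replicate 3, and 0 without shJUNs replicate 1 or 2.

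Of 27 ATF4 and unfolded protein response genes tested 5 were lower and 2 higher, and 4 to 6 were lower with each library left out in turn. Higher members numbered 6 without shYAPTAZ replicate 3 and 0 without replicate 2 or any 1 shJUNs library. ATF4, the transcription factor of the integrated stress response, was 104, 126 and 127 CPM in shYAPTAZ, against 278, 278 and 259 CPM in shJUNs, 2.28-fold lower (adjusted p = 9.14e-05). SLC7A5, the light chain of the LAT1 amino acid transporter, was 174, 166 and 161 CPM in shYAPTAZ, against 582, 571 and 598 CPM in shJUNs, 3.50-fold lower (adjusted p = 2.94e-07). Its heavy chain SLC3A2 was 131, 87.3 and 137 CPM in shYAPTAZ, against 282, 303 and 268 CPM in shJUNs, 2.40-fold lower (adjusted p = 0.000234). The 2 higher members, HSP90B1, a chaperone of the endoplasmic reticulum (1.39-fold, adjusted p = 0.034), and SEL1L, which serves the degradation of misfolded proteins there (1.57-fold, 0.0229), lost their calls without shYAPTAZ replicate 2 or any 1 shJUNs library (0.0957 to 0.181 for HSP90B1 and 0.0565 to 0.109 for SEL1L).

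Of 21 cholesterol synthesis genes tested 5 were higher and 2 lower, but 1 or 2 were higher without shYAPTAZ replicate 2 or any 1 shJUNs library. The sterol demethylation enzyme MSMO1 was 51.9, 52.3 and 40.1 CPM in shYAPTAZ, against 112, 113 and 127 CPM in shJUNs, 2.46-fold lower (adjusted p = 0.000267). Of 22 fatty acid and lipid droplet genes 1 was higher and 1 lower, with 4 higher without shYAPTAZ replicate 3, 0 without any 1 shJUNs library, and 3 lower without shYAPTAZ replicate 1. The lower one was the acyl-CoA synthetase ACSL1, 2.71-fold lower (adjusted p = 0.00259).

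Of 16 NRF2 targets tested 5 were higher and 2 lower, but 2 were higher without any 1 shJUNs library. The ferritin chains FTL (10184, 9555 and 9588 CPM in shYAPTAZ, against 6618, 6417 and 5967 CPM in shJUNs, 1.54-fold higher, adjusted p = 0.000137) and FTH1 (1.48-fold higher, 0.00246) stood against TXNRD1, thioredoxin reductase, which was 158, 182 and 263 CPM in shYAPTAZ and 448, 462 and 437 CPM in shJUNs, 2.23-fold lower (0.000387). The oxidative phosphorylation list had 2 of 44 tested genes lower and none higher, led by the ATP synthase subunit ATP5MC1, 2.35-fold lower (adjusted p = 9.53e-05), with 4 and 6 lower without shYAPTAZ replicates 1 and 3 and 1 when any other library was left out. Of 13 mitochondrial genome transcripts 1 was higher, MT-CO1 (1.67-fold, adjusted p = 0.000601), and 2 were lower, with 4 lower without shYAPTAZ replicate 1 or 3 and none without shYAPTAZ replicate 2 or shJUNs replicate 1 or 2. Of 49 cytosolic ribosomal protein genes 9 were higher and 3 lower, but 3 or 4 were higher without any 1 shJUNs library and 1 lower without shYAPTAZ replicate 2 or any 1 shJUNs library. RPS4X, on chromosome X, was 4602, 3937 and 3681 CPM in shYAPTAZ, against 1708, 1649 and 1666 CPM in shJUNs, 2.43-fold higher (adjusted p = 1.25e-06). RPL38, on chromosome 17, was 586, 603 and 589 CPM in shYAPTAZ, against 1052, 1079 and 997 CPM in shJUNs, 1.76-fold lower (adjusted p = 0.000152).

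Some markers of the kidney lineage were present in both lines, and those of blood and endothelium were near 0. Of 21 renal lineage genes 11 had enough counts to be tested and 4 were at 0 in all 6 libraries. Of those tested 2 were higher and none lower, and 4 were higher without shYAPTAZ replicate 3 or with DESeq2, and 1 lower without shYAPTAZ replicate 3. LHX1, a factor of the early kidney, was 34.4, 62.2 and 74.2 CPM in shYAPTAZ, against 19.01, 14.5 and 19.8 CPM in shJUNs, 3.22-fold higher (adjusted p = 0.00119). ANPEP, an aminopeptidase of the proximal tubule brush border, was 79.9, 103 and 65.02 CPM in shYAPTAZ, against 35.3, 37.9 and 31.1 CPM in shJUNs, 2.38-fold higher (adjusted p = 0.00136). The 12 blood markers summed to 1.69 to 2.75 CPM in shYAPTAZ and 0.269 to 2.01 CPM in shJUNs, with 8 at 0 in all 6 libraries, and 8 of 10 endothelial markers were at 0. Of 5 fibroblast and smooth muscle markers tested only ACTA2 was called.

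Of 4 neural markers tested 2 were higher and 1 lower. NEFL, the neurofilament light chain, was 2369.7, 2457 and 1906 CPM in shYAPTAZ, against 691, 620.3 and 614 CPM in shJUNs, 3.50-fold higher (adjusted p = 2.08e-07). SNAP25, a synaptic fusion protein, was 36.7, 22.5 and 11.8 CPM in shYAPTAZ, against 2.24, 4.03 and 2.03 CPM in shJUNs, 8.46-fold higher (adjusted p = 0.000744). RBFOX3, the neuronal splicing factor NeuN, ran the other way at 0, 0.321 and 1.45 CPM in shYAPTAZ, against 8.72, 8.06 and 6.98 CPM in shJUNs (adjusted p = 0.00769), a call lost without shJUNs replicate 1 (0.0504). Of the 9 neural markers 3 were at 0 in all 6 libraries, and NEFL alone made up most of their sum in both lines.

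Some genes were on in one line and nearly silent in the other. Among called genes 121 were at least 8-fold higher and 99 at least 8-fold lower, 18 of the higher had no count in shJUNs and 13 of the lower no count in shYAPTAZ. AUTS2, a chromatin regulator linked to neural development, was 40.9, 57.1 and 59.9 CPM in shYAPTAZ with no count in shJUNs, at least 229.9-fold higher (adjusted p = 3.08e-07). BAALC, a cytoplasmic protein first found in brain and leukaemia, was 29.8, 16.7 and 10.2 CPM in shYAPTAZ with no count in shJUNs, at least 71.0-fold higher (adjusted p = 7.87e-05). PTN, the growth factor pleiotrophin, was 95.9, 98.5 and 93.8 CPM in shYAPTAZ, against 0.224, 0.538 and 0.225 CPM in shJUNs (log2 8.10, adjusted p = 4.81e-09). These 3 genes and LEF1 were as good as absent from every shJUNs library.

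The rest of the 12 largest rises had few counts in shJUNs. CDH11, a mesenchymal cadherin, was 122, 66.1 and 56.1 CPM in shYAPTAZ, against 0.447, 0.269 and 0.450 CPM in shJUNs (log2 7.56, adjusted p = 1.23e-07). SRGN, the proteoglycan serglycin, was 65.2, 65.5 and 65.02 CPM in shYAPTAZ, against 0.671, 0.269 and 0.450 CPM in shJUNs (log2 7.01, adjusted p = 2.54e-08). The matricellular protein POSTN, on chromosome 13, was 20.7, 36.9 and 25.1 CPM in shYAPTAZ, with 2 counts over the shJUNs libraries, a ratio of 177 (95% interval 48.5 to 1468). PDPN, the mucin-type glycoprotein podoplanin, had 3 counts over shJUNs, a ratio of 162 (55.0 to 789.6). ENTPD3, an ectonucleotidase, EPHB1, an ephrin receptor, SCD5, a fatty acid desaturase, and CCDC152 had 1 count each over shJUNs, against 366, 143, 184 and 202 counts in shYAPTAZ. CTHRC1, a secreted collagen-associated protein added after its values were seen, was 1148, 881 and 699 CPM in shYAPTAZ, against 6.04, 9.94 and 10.4 CPM in shJUNs, 104-fold higher (adjusted p = 1.60e-09).

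Of the 12 largest falls 5 had no count in shYAPTAZ. SLC16A4, a member of the monocarboxylate transporter family, had no count in shYAPTAZ and 29.1, 25.8 and 25.4 CPM in shJUNs, at least 84.4-fold lower (adjusted p = 5.57e-06). RNLS, the flavoprotein renalase, had no count in shYAPTAZ and 16.8, 15.3 and 16.4 CPM in shJUNs, at least 51.0-fold lower (adjusted p = 4.99e-05). SHISA2, TFCP2, a transcription factor, and UPK1B, a urothelial uroplakin, also had no count in shYAPTAZ, with bounds of at least 62.5-fold, 39.1-fold and 35.8-fold. None of these 5 transcripts was detected in any shYAPTAZ library, at a floor of 3 counts over the group.

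LAYN, the hyaluronan receptor layilin, was 0.918, 2.25 and 1.45 CPM in shYAPTAZ, against 78.1, 66.9 and 77.2 CPM in shJUNs, 45.8-fold lower (adjusted p = 6.60e-08). PTCHD4, PKP2, UCA1, a long noncoding RNA, KLHL13, an adaptor of a ubiquitin ligase, and KYNU, an enzyme of tryptophan breakdown, had 2 counts each over shYAPTAZ, against 240, 184, 187, 168 and 147 in shJUNs, and SLITRK5 had 1 against 160. RARRES2, the adipokine chemerin, added after its values were seen, was 47.3, 34.97 and 20.8 CPM in shYAPTAZ, against 706, 644 and 596 CPM in shJUNs, 19.3-fold lower (adjusted p = 5.86e-08). Each of the 24 largest changes kept its call under every alternative that could be fitted.

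**Figure D4:**
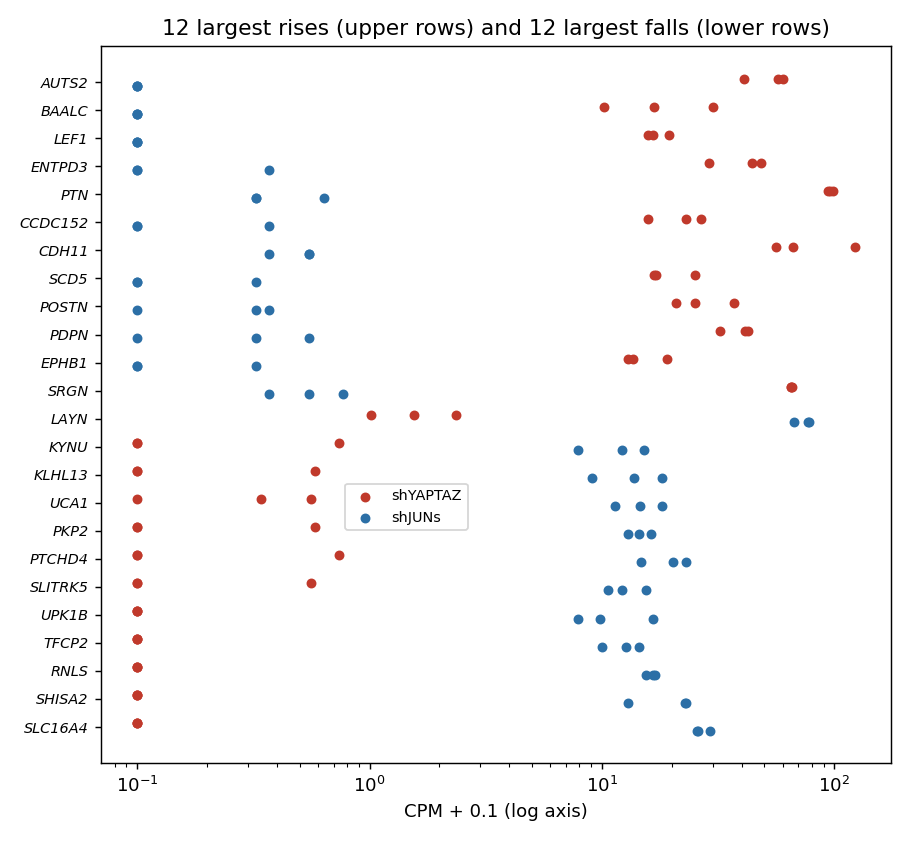
CPM plus 0.1, on a log axis, of the 12 largest rises (upper rows) and the 12 largest falls (lower rows) in each library, shYAPTAZ above shJUNs within a row. Points at 0.1 are libraries with no count, and within every row the libraries of the 2 groups are far apart.

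Genes of some chromosomes shared a direction. On chromosome 14 the median log2 change of 403 genes tested was 0.41, 77.2% of them lay above 0, and 19.6% were called higher and 2.23% lower. On chromosome 13 the median over 201 genes was -0.41, 24.4% lay above 0, and 2.49% were called higher and 16.9% lower. In each library the median deviation of chromosome 14 genes from the 6-library mean was 0.25, 0.17 and 0.19 (log2 of CPM + 1) in shYAPTAZ, against -0.19, -0.15 and -0.18 in shJUNs. For chromosome 13 it was -0.30, -0.18 and -0.10 in shYAPTAZ, against 0.23, 0.27 and 0.19 in shJUNs. All 6 libraries followed their line on both chromosomes. Genes of a chromosome are not replicates of each other, so no p-value is given.

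These 2 chromosomes were not alone. Chromosome 6 had a median of 0.40 over 599 genes, with 18.9% called higher, and chromosome 12 a median of -0.37 over 615 genes, with 15.9% called lower. Within chromosome 14 the medians of 20 Mb windows ran from 0.29 to 0.48, and within chromosome 13 from -0.67 to -0.32 in the 4 windows that held at least 20 genes, with one sign in every window measured on each. Chromosomes 3, 6 and 12 kept one sign as well, with window medians of 0.03 to 0.44, 0.33 to 0.57 and -0.51 to -0.22. Some other chromosomes changed sign along their length. On chromosome 17 the window from 0 to 20 Mb had a median of 0.42 and the 4 windows beyond it -0.28 to -0.65. On chromosome 20 the first 20 Mb had 0.37 and the rest -0.43 to -0.30, and on chromosome 9 the windows to 40 Mb had 0.60 and 0.39 and the later ones -0.34 to -0.23. Chromosome 7 had medians of 0.23 to 0.41 up to 60 Mb and -0.32 to -0.11 beyond. Chromosome 4 ranged widely, with 0.76 from 80 to 100 Mb, -0.44 from 160 to 180 Mb and 1.01 from 180 to 200 Mb. The highest median of the 151 windows was 1.06, on chromosome X from 60 to 80 Mb, the window that holds RPS4X. Chromosomes 1, 2, 5, 8, 10, 11, 16, 18, 22 and X had medians within 0.05 of 0. Some genes named above lie in windows that shifted the same way. SLC16A3 (log2 -0.87) lies on chromosome 17 from 80 to 100 Mb, with a median of -0.65. ITGA3, KRT19 and ATP5MC1 lie there from 40 to 60 Mb, with -0.40. MSMO1 (log2 -1.30) lies on chromosome 4 from 160 to 180 Mb. ACSL1 (log2 -1.44) went against its window, the one that holds FAT1. The part of these shifts in single genes was not tested.

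Single genes on chromosomes 13 and 14 went far beyond the shift, and some against it. NID2, a basement membrane nidogen on chromosome 14, was 199.7, 119 and 68.9 CPM in shYAPTAZ, against 3.13, 5.11 and 2.93 CPM in shJUNs, 34.7-fold higher (adjusted p = 2.06e-06). LTBP2, a microfibril protein, was 12.4, 8.34 and 12.1 CPM in shYAPTAZ, against 0.224, 1.61 and 0.225 CPM in shJUNs, 16.0-fold higher (adjusted p = 0.00213). With HIF1A these were the 3 widest rises on chromosome 14 among genes of at least 10 CPM. The widest falls there were IFI27, the kinase gene MOK at 7.35, 2.57 and 2.66 CPM in shYAPTAZ, against 25.9, 28.8 and 33.3 CPM in shJUNs (adjusted p = 0.000303 for a 7.42-fold fall), and MDGA2, a neuronal adhesion gene, at 4.59, 0 and 0 CPM in shYAPTAZ, against 21.5, 29.8 and 12.6 CPM in shJUNs (adjusted p = 0.0101, and 0.184 with DESeq2).

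On chromosome 13 the widest falls were SHISA2, SLITRK5 and TRPC4, a cation channel gene at 0.459, 1.93 and 1.69 CPM in shYAPTAZ, against 13.4, 6.99 and 12.8 CPM in shJUNs, 7.58-fold lower (adjusted p = 0.00441). Against the direction of the chromosome, DNAJC15, a mitochondrial import cochaperone, was 160.2, 182 and 129 CPM in shYAPTAZ, against 40.5, 59.9 and 43.2 CPM in shJUNs, 3.28-fold higher (adjusted p = 6.03e-05). POSTN was higher as well, as was GGACT, at 12.4, 12.2 and 6.04 CPM in shYAPTAZ, against 3.13, 1.08 and 3.38 CPM in shJUNs (adjusted p = 0.0339). The call for GGACT, which overlaps PCCA, ended when any library other than shYAPTAZ replicate 3 was left out (adjusted p from 0.0667 to 0.128). When the genes of both chromosomes were left out of the fit, 883 genes were called higher and 837 lower.

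**Figure D5:**
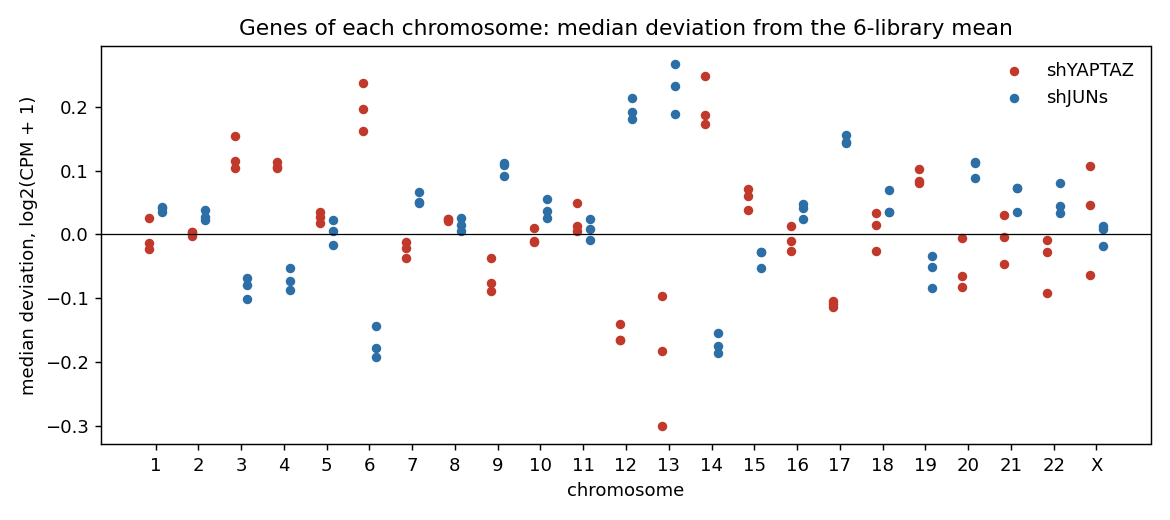
Median deviation of the tested genes of each chromosome from their mean over the 6 libraries, log2 of CPM + 1, with a point per library and shYAPTAZ left of shJUNs. The lines part most on chromosomes 6, 12, 13, 14 and 17, and on chromosome 14 the shYAPTAZ libraries lie at 0.17 to 0.25 and the shJUNs libraries at -0.19 to -0.15.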

How the data were processed

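The 6 libraries measured polyadenylated RNA of 786-O by BRB-seq. Its deposited values are raw gene counts, for which the submitters' processing notes name Trim Galore, STAR and hg38. Not given in the sources used here are the counting program, its use of strands, the annotation release and the handling of molecular identifiers, so paralogs, overlapping genes and antisense pairs are uncertain. The layout is that of featureCounts, per the file headers. Of 62705 lines, 3 that hold 1 broken gene were left out, which gave 62702 genes, and 42299 of them matched a gene symbol.

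The test was edgeR (4.0.16, R 4.3.3), with filterByExpr, TMM, and a robust quasi-likelihood fit of the 6 libraries with a mean per group. The coefficient of variation was 24.6%. The fit was tested on simulated data. CPM use the TMM-scaled library size. Where a group had no count, the fold is a bound against 3 counts over the group. With 1 to 3 counts the ratio has a 95% Clopper-Pearson interval. Bounds and intervals cover counting error only. With 3 against 3 libraries an exact permutation test cannot go below 0.1, so none was used.

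The 35 gene lists and the comparison were chosen with earlier results of these data known. The rule for named genes took the 5 shRNA targets first. It added the 12 largest rises and falls among called genes with at least 10 CPM, no overlap and a plain symbol. Of each list it took up to 4 called members in each direction with the smallest p. Any member of the YAP/TAZ, TEAD, AP-1, MAF and renal lineage lists could be named. The rule also took the 3 largest changes in each direction on chromosomes 13 and 14. DESeq2 1.42.0 and limma 3.58.1 were among 16 alternatives. Promoters came from RefSeq on GRCh38.p14, with 9196 of the tested genes matched by symbol. Some genes that the rule would name are not reported here.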

Additional observations from a re-analysis of the deposited data

How the results depend on the processing

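The direction of each called gene that the naming rule picked held under each of the 16 alternatives in which it could be fitted: of 167 such genes, a few chosen after their values were seen included, 112 kept their call throughout and 55 lost it at least once, mostly with a library left out. The fit with a mean of at least 10 CPM held 141 of them and that without chromosomes 13 and 14 held 148. Calls with all 6 libraries kept numbered 810 to 1111 higher and 776 to 1104 lower, the lowest with a mean of at least 10 CPM and the highest with no filter (1111 higher) or the replicate block (1104 lower). Leaving out each replicate in turn gave 482 to 1246 genes higher and 449 to 1295 lower, and among YAP/TAZ targets 2 to 5 higher and 5 to 10 lower. The chromosome 13 median ran from -0.52 to -0.39 with each replicate left out and was -0.63 with no filter, and that of chromosome 14 ran from 0.41 to 0.44 and was 0.36. Whether replicate numbers pair the libraries was not settled. Same-numbered libraries deviated together with correlations of 0.122, 0.0257 and 0.196 over 10283 genes. For shYAPTAZ replicates 1 and 3 the same number gave the highest correlation, while shYAPTAZ replicate 2 correlated slightly better with shJUNs replicate 1 (0.0347). A fit with the replicate block called 1098 genes higher and 1104 lower, against 958 and 899 without the block. Log2 changes of genes not called crossed 0 with a replicate left out: MAF ran from -0.69 to 0.14, PAX8 from -0.098 to 0.096 and TEAD4 from -0.34 to 0.19. The causes were not tested. Depth limits genes near the floor of 3 counts.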
